A study of Bos taurus with 9 samples.

Results

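The genes described here are 3 beta subunits of the sodium pump, *ATP1B1*, *ATP1B2* and *ATP1B3*, and 3 aquaporins, *AQP3*, *AQP9* and *AQP11*. They were chosen by symbol for their place in the filling of the blastocoel, with earlier results of these data known, and are 6 of the 21512 genes of the deposited table. All 6 had a median above 0.1 TPM and were among the 14599 genes tested. The study asked whether the transcription factor TEAD4 is needed for the trophectoderm (TE) of cattle embryos, and compared single D8 blastocysts produced in vitro, 5 WT and 4 *TEAD4* knockout (KO), with 1 RNA-seq library per embryo and no pooling. TPM, a unit of transcript abundance, correct for transcript length, so that levels of different genes in a library can be set side by side.

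By the study's methods, oocytes were injected with *Cas9* mRNA, with or without a guide RNA against the fourth exon of *TEAD4*, and fertilised with sperm of a single bull. KO embryos came from the injection with the guide and carried only alleles with frame-disrupting insertions or deletions made at random, so the edited alleles can differ from embryo to embryo. WT embryos were described as injected with *Cas9* alone, so both groups share the injection and the *Cas9* mRNA. The labels give the material as blastomeres of both the inner cell mass (ICM) and the TE, and the embryos were not dissected. In such whole-embryo samples, fewer cells of a type and less RNA per cell cannot be told apart. Library names follow the columns of the table, WT_1 to WT_5 for WT and, for the KO embryos, TE_1 to TE_4, where TE is not the tissue. Separate embryos are the replicates, and no batch is named.

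A blastocyst forms when the TE seals itself with tight junctions and moves fluid inwards. The sodium pump in the basolateral membrane of TE cells pushes sodium into the cavity, and water follows down the osmotic gradient, in part through aquaporins. The pump is a catalytic alpha subunit with a glycosylated beta subunit, which the alpha subunit needs to fold and to reach the membrane, while small FXYD proteins tune its kinetics.

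Each library summed to 1000000 TPM. Genes above 0 numbered 14807, 15933, 16678, 16086 and 16549 in WT_1 to WT_5 and 14776, 15156, 15167 and 15375 in TE_1 to TE_4. WT_1 thus lay among the KO libraries, and WT_2 to WT_5 lay above all of them. Whether this difference in detection bears on the levels below was not tested. The paper gives a range of read numbers per sample but does not tie them to the columns. The number of reads behind a value is not kept by TPM, so the depth of each library is unknown and no counting interval is given. *TEAD4*, the edited gene, was at 18.0, 52.5, 54.3, 36.5 and 43.4 TPM in the WT embryos, in the order of their numbers, and at 42.8, 41.8, 12.5 and 22.2 TPM in the KO embryos in the same order, as below. The groups overlapped (log2 fold change −0.51, SE 0.42, limma adjusted p = 0.947), and a TPM value does not show whether a transcript carries an indel. All 10 TE markers and all 5 ICM and epiblast markers of the lists used were above 0 in every library. In mean log2(TPM + 1), WT_1 was the highest of the 9 libraries for the TE markers, at 8.29, and the lowest for the ICM and epiblast markers, at 4.27, and for the 7 hypoblast markers, at 3.50.

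*ATP1B3*, a widely expressed beta subunit, made up nearly all beta subunit RNA of these blastocysts. Its level was 4386, 3715, 1937, 923 and 3224 TPM in the WT and 1913, 2081, 1851 and 1238 TPM in the KO embryos. It ranked between 20 and 210 among the 21512 genes of a library, whereas *ATP1B1* ranked between 3918 and 9810 and *ATP1B2* between 4861 and 11723. In each of the 9 libraries *ATP1B3* was far above both other beta subunits, at between 133 and 1345 times the level of *ATP1B1* and between 103 and 6229 times that of *ATP1B2*.

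All 4 KO values of *ATP1B3* lay below the WT median of 3224 TPM, but all 4 also lay inside the WT range, since WT_4 was the lowest of the 9 libraries. The mean was 2837 ± 1396 TPM in WT (SD, n = 5) and 1771 ± 368 TPM in KO (SD, n = 4). The log2 fold change, on the log2(TPM + 1) scale used throughout, was −0.51 (SE 0.41, 95% interval −1.40 to 0.37, limma adjusted p = 0.941; exact permutation test, two-sided, p = 0.317), so no difference beyond the spread between embryos was shown. Without WT_4 it was −0.87 (SE 0.29, limma unadjusted p = 0.0112, adjusted p = 0.737; exact permutation p = 0.0571), while it was −0.31 without WT_1 (exact permutation p = 0.571) and −0.35 without TE_4 (exact permutation p = 0.571). The KO embryos varied less than the WT embryos on the linear scale, with a highest value 1.68 times the lowest in KO and 4.75 times in WT; this difference in spread was not tested.

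*ATP1B1*, the beta subunit found in most transporting epithelia, was low in comparison. Values of 28.2, 4.20, 4.23, 2.14 and 2.40 TPM were found in the WT and of 7.70, 7.89, 13.9 and 6.25 TPM in the KO embryos. WT_1 was 13.2 times as high as WT_4, and the other 4 WT libraries all lay below the 4 KO libraries, whose median was 7.79 TPM against 4.20 TPM in WT. With WT_1 the groups overlapped, with a mean of 8.24 ± 11.2 TPM in WT (SD, n = 5) and 8.94 ± 3.41 TPM in KO (SD, n = 4). The log2 fold change was 0.65 (SE 0.59, 95% interval −0.64 to 1.93, limma adjusted p = 0.956; exact permutation test, two-sided, p = 0.381). Without WT_1 it was 1.21 (SE 0.36), with an exact permutation p of 0.0286, the smallest that 4 against 4 embryos can give, and a limma unadjusted p of 0.00647, but the limma adjusted p was 0.533. WT_1 was the only WT library not below the KO libraries, so leaving it out fixed that permutation p in advance. Whether the groups overlapped thus rested on 1 library, and with or without it the adjusted p, taken over all genes, missed the threshold. The RefSeq annotation places *ATP1B1* over *NME7* (8.54 to 18.0 TPM here), and since the sources differ on whether the libraries kept the strand, low *ATP1B1* values are uncertain to that extent.

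*ATP1B2*, a beta subunit best known from glia and neurons, varied most. The WT embryos held 0.704, 4.80, 18.7, 6.16 and 2.29 TPM and the KO embryos 1.19, 8.88, 2.36 and 6.46 TPM. The highest library, WT_3, was 26.6 times the lowest, WT_1, and all 4 KO libraries lay within the WT range. The mean was 6.54 ± 7.14 TPM in WT (SD, n = 5) and 4.72 ± 3.58 TPM in KO (SD, n = 4). The log2 fold change was −0.16 (SE 0.67, 95% interval −1.61 to 1.29, limma adjusted p = 0.992; exact permutation test, two-sided, p = 0.889), and its sign turned when WT_3, TE_1 or TE_3 was left out. The residual SD of *ATP1B2* in the fit was at the 97.0 percentile of all genes tested, with *ATP1B1* at 94.6, *AQP11* at 95.3, *AQP3* at 86.5, *ATP1B3* at 82.6 and *AQP9* at 28.7.

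**Figure D1:**
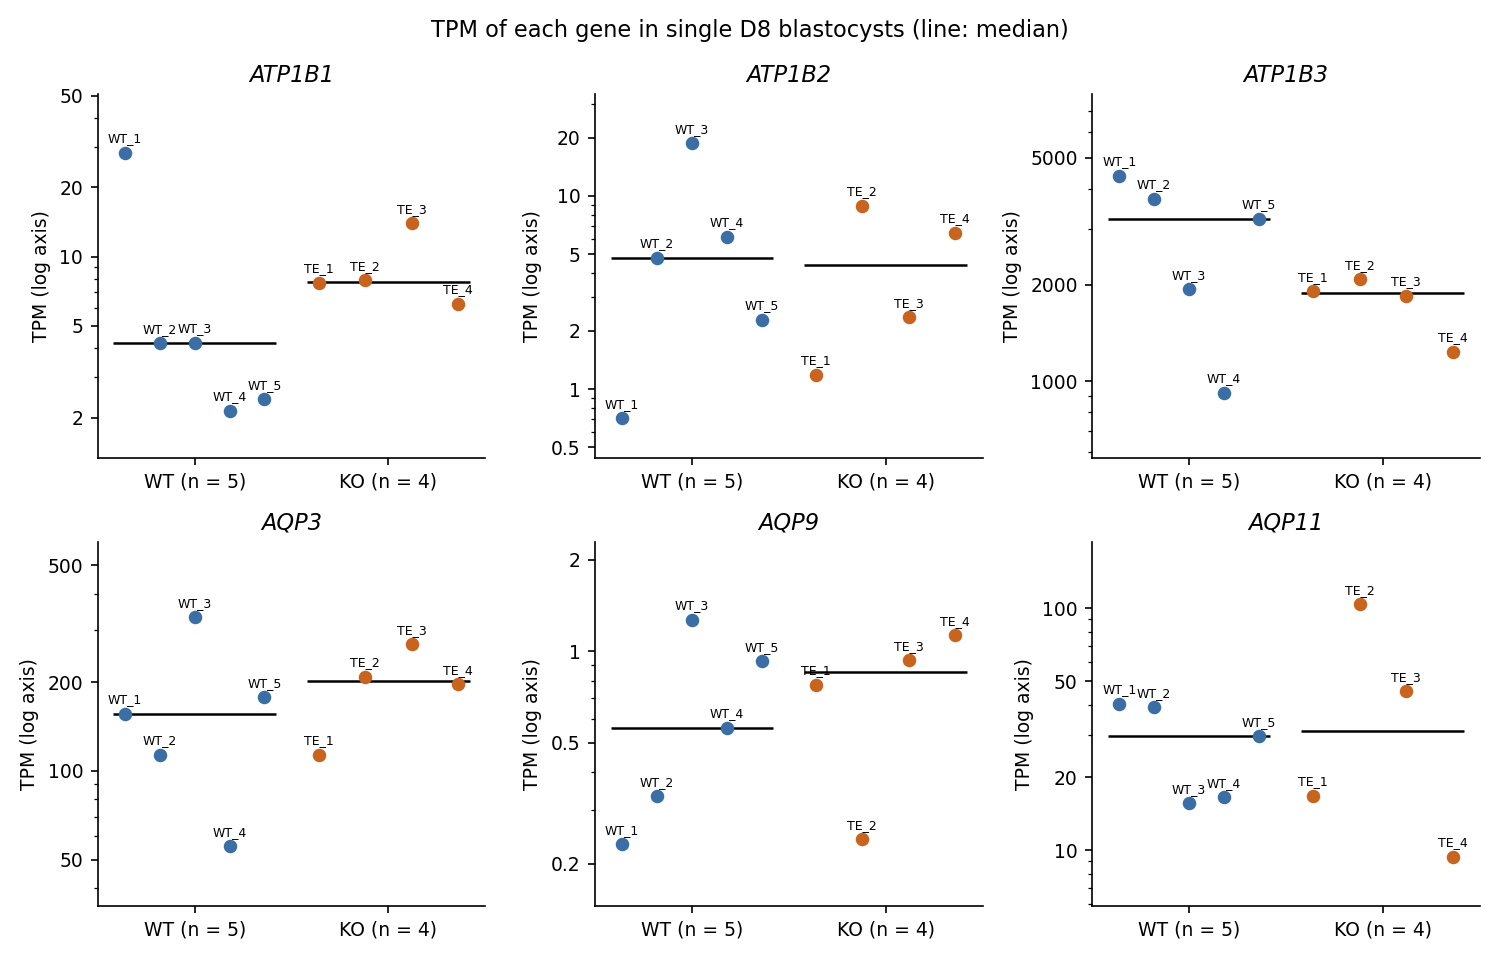
TPM (log axes) of *ATP1B1*, *ATP1B2*, *ATP1B3*, *AQP3*, *AQP9* and *AQP11* in each library, 5 WT (blue) and 4 KO (orange), with a horizontal line at each group's median. The groups overlap for all 6 genes; for *ATP1B1* the overlap comes from WT_1 at 28.2 TPM, and for *ATP1B3* all KO values are between WT_4 and WT_5.

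*AQP3* led the aquaporins. It encodes an aquaglyceroporin, a channel that passes glycerol as well as water. Its level was 156, 114, 332, 55.6 and 178 TPM in the WT and 114, 209, 269 and 197 TPM in the KO embryos. The lowest and the highest of the 9 values were both WT, so all 4 KO libraries lay within the WT range, 3 of them above the WT median of 156 TPM. The mean was 167 ± 103 TPM in WT (SD, n = 5) and 197 ± 64.1 TPM in KO (SD, n = 4), a log2 fold change of 0.40 (SE 0.44, 95% interval −0.55 to 1.35, limma adjusted p = 0.971; exact permutation test, two-sided, p = 0.476). It was 0.064 without WT_4 and 0.70 without WT_3.

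*AQP11*, an unorthodox aquaporin of intracellular membranes, came next. Values of 40.3, 38.9, 15.7, 16.6 and 29.6 TPM were found in the WT and of 16.8, 104, 45.4 and 9.42 TPM in the KO embryos. The KO embryos lay on both sides of the WT range, with TE_2 and TE_3 above it, TE_4 below it and TE_1 inside it. The highest value was 11 times the lowest in KO and 2.57 times in WT, a contrast in spread that was seen in the values and not tested. The mean was 28.2 ± 11.8 TPM in WT (SD, n = 5) and 43.9 ± 42.9 TPM in KO (SD, n = 4). The log2 fold change was 0.18 (SE 0.59, 95% interval −1.10 to 1.47, limma adjusted p = 0.991; exact permutation test, two-sided, p = 0.81), and −0.41 without TE_2.

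*AQP9*, an aquaglyceroporin of liver and leukocytes that also passes small neutral solutes, was the lowest of the 6 genes. The WT embryos held 0.232, 0.335, 1.27, 0.561 and 0.928 TPM and the KO embryos 0.776, 0.241, 0.935 and 1.13 TPM. It was above 0 in every library, and all 4 KO values lay within the WT range. The mean was 0.665 ± 0.430 TPM in WT (SD, n = 5) and 0.771 ± 0.382 TPM in KO (SD, n = 4). The log2 fold change was 0.098 (SE 0.24, 95% interval −0.42 to 0.62, limma adjusted p = 0.985; exact permutation test, two-sided, p = 0.698). The pseudocount of 1 TPM exceeds most of these values and understates their ratios.

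Of the 6 genes, 0 passed an adjusted p under 0.05 with an absolute log2 fold change above 1 in limma, against 0.0205% of the 14599 genes tested. At an unadjusted p under 0.05 the count was again 0 of 6, against 5.9% of all genes, and 0 of 6 had groups that did not overlap, against 2.03% of all genes. Fold changes were above 0 for 4 of the 6 and below 0 for 2, with a median of 0.14, beside 44.2% above 0 and a median of −0.046 over all genes tested. The 95% intervals leave room for sizeable differences in either direction, from a KO level of 0.379 to 1.29 times WT for *ATP1B3*, of 0.681 to 2.56 times for *AQP3* and of 0.643 to 3.82 times for *ATP1B1*, on the TPM + 1 scale.

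**Figure D2:**
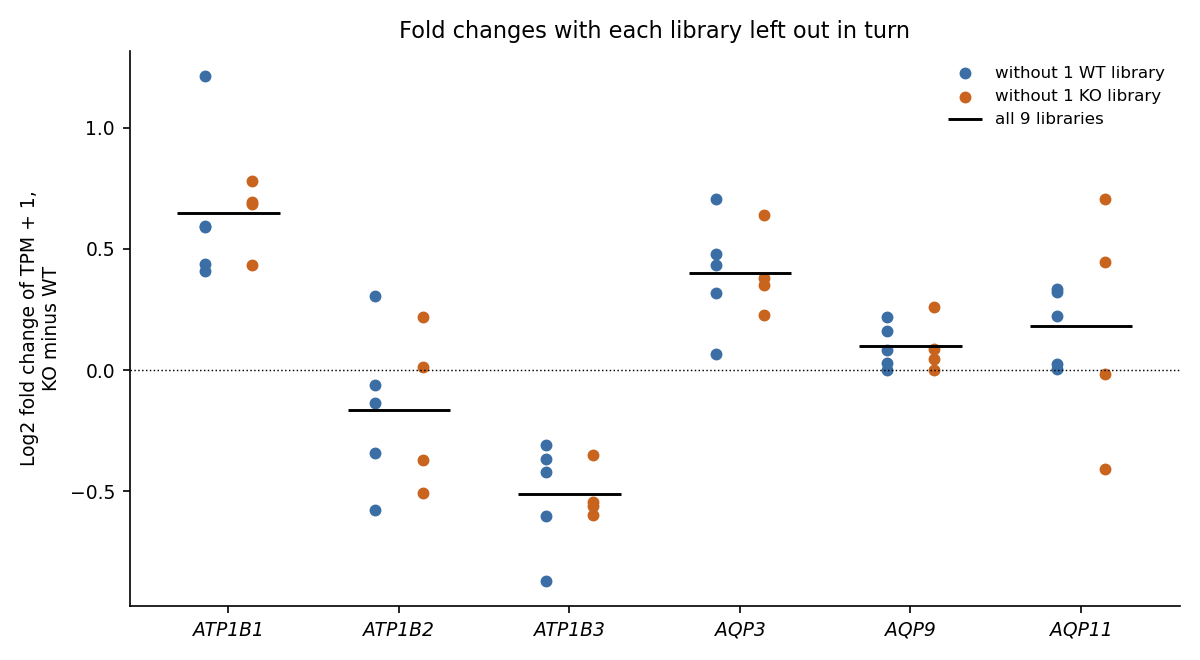
Log2 fold change of TPM + 1 (KO minus WT) of each gene with all 9 libraries (black line) and with each WT library (blue points) or KO library (orange points) left out in turn. *ATP1B1*, *ATP1B3* and *AQP3* keep their sign in all 9 cases, while *ATP1B2*, *AQP9* and *AQP11* lie on both sides of 0.

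The balance within each family was described by the share of each gene in the summed TPM of its family, and 8 balance measures were tested by exact two-sided permutation with Benjamini-Hochberg adjustment over the 8. *ATP1B3* made up between 98.8% and 99.9% of the summed TPM of the 3 beta subunits in every library, 99.4 ± 0.432% in WT (SD, n = 5) and 99.2 ± 0.235% in KO (SD, n = 4). The difference of −0.167 percentage points gave an exact permutation p of 0.524, adjusted p = 0.984. The remaining share was divided between *ATP1B1* and *ATP1B2* in no fixed order, since *ATP1B2* exceeded *ATP1B1* in 5 of 9 libraries and the ratio of *ATP1B2* to *ATP1B1* went from 0.0249 in WT_1 to 4.43 in WT_3.

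The *ATP1B1* share was 0.254 ± 0.225% in WT (SD, n = 5) and 0.506 ± 0.169% in KO (SD, n = 4). The log2 ratio of *ATP1B1* to *ATP1B3* was −7.23, −9.48, −8.53, −8.20 and −9.89 in WT_1 to WT_5 and −7.78, −7.87, −6.95 and −7.42 in TE_1 to TE_4. All 4 KO embryos thus had a higher ratio than 4 of the 5 WT embryos, and WT_1 lay among the KO values. The difference of 1.16 log2 units came with an exact permutation p of 0.0794 and an adjusted p of 0.381. Without WT_1 it was 1.52 log2 units and the groups did not overlap. The exact permutation p was then 0.0286, the smallest that 4 against 4 embryos can give, and the adjusted p was 0.114. WT_1 was the only WT library among the KO values, so leaving it out fixed the separation and the unadjusted p. A measure at that smallest p cannot pass the adjustment unless most of the 8 reach it too, so neither p can decide the question. With all 9 libraries the balance of the beta subunits was not shown to differ between genotypes.

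**Figure D3:**
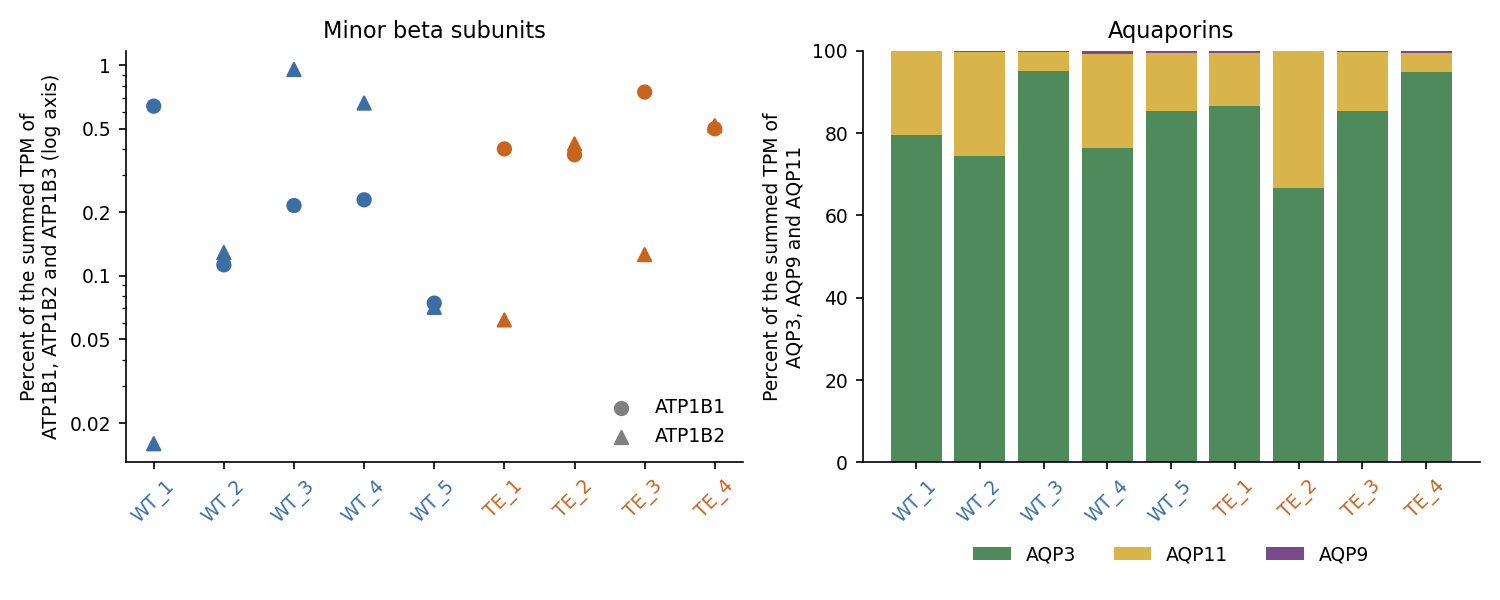
Left, the percent (log axis) of the summed TPM of *ATP1B1*, *ATP1B2* and *ATP1B3* that was *ATP1B1* (circles) or *ATP1B2* (triangles) in each library; the rest was *ATP1B3*. Right, the percent of the summed TPM of *AQP3*, *AQP9* and *AQP11* taken by each aquaporin, with *AQP3* between 66.7% and 95.1%. WT names are blue and KO names orange.

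*AQP3* took most of the aquaporin sum in every library, with a share of 79.4, 74.3, 95.1, 76.4 and 85.3% in WT_1 to WT_5 and of 86.6, 66.7, 85.3 and 94.9% in TE_1 to TE_4. *AQP11* held nearly all of the rest and *AQP9* between 0.0770% and 0.772%. The *AQP3* share was 82.1 ± 8.38% in WT (SD, n = 5) and 83.4 ± 11.9% in KO (SD, n = 4), and the log2 ratio of *AQP3* to *AQP11* was 2.40 ± 1.14 and 2.62 ± 1.33. Neither was shown to differ beyond the spread between embryos (exact permutation adjusted p = 0.984 for both). The level of *AQP3* ran from 2.01 times that of *AQP11* in TE_2 to 21.2 times in WT_3.

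The summed TPM of the beta subunits was 2852 ± 1399 in WT (SD, n = 5) and 1785 ± 369 in KO (SD, n = 4), which follows *ATP1B3* (difference in mean log2 −0.51, exact permutation p = 0.317). The aquaporin sum was 196 ± 101 TPM in WT (SD, n = 5) and 242 ± 89.3 TPM in KO (SD, n = 4), a difference of 0.39 in mean log2 (exact permutation p = 0.508). The table gives 1 value per gene, so these balances are between genes and not between transcripts of a gene.

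Whether the 6 genes varied together from embryo to embryo was examined in 15 pairs over the 9 libraries, none of which passed the adjustment. The strongest was the negative relation of *AQP9* with *AQP11* (Pearson's r = −0.687, exact permutation p = 0.0419, adjusted p = 0.57; Spearman's rho = −0.633, exact permutation p = 0.076, adjusted p = 0.444), and r was −0.439 without TE_2 and WT_1. *ATP1B1* and *ATP1B3* gave r = 0.389 (exact permutation p = 0.304; rho = 0.25, exact permutation p = 0.521), and r was −0.558 without WT_1 and WT_4, so its sign rested on those 2 libraries.

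The other genes of the pathway were read from lists of 65 genes in all, of which 62 had a row and 46 were tested. *ATP1B4*, which is related in sequence to the beta subunits, was between 0.424 and 1.07 TPM (log2 fold change 0.13, limma adjusted p = 0.982).

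Of the 7 FXYD genes, *FXYD4*, which encodes a regulator known to raise the pump's affinity for sodium, was the highest in every library. Its level was 504, 1012, 320, 238 and 747 TPM in the WT and 462, 175, 439 and 49.4 TPM in the KO embryos. Its log2 fold change of −1.26 (SE 0.63, limma unadjusted p = 0.0673, adjusted p = 0.847; exact permutation p = 0.175) did not pass. *FXYD6* was between 4.26 and 45.2 TPM, and *FXYD3* went from 0 in TE_2 to 113 TPM in TE_3, with limma adjusted p = 0.982 for both. *FXYD1*, *FXYD5* and *FXYD7* stayed at or below 2.99 TPM, with limma adjusted p of 0.994, 0.966 and 0.97. *FXYD2* was above 0 only in WT_4 (0.127 TPM) and TE_3 (0.298 TPM) and was not tested.

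Of the other aquaporins, *AQP4*, a water-selective channel, was tested beside *AQP3*, *AQP9* and *AQP11*. It was between 0.495 and 0.916 TPM in WT and between 0.747 and 1.53 TPM in KO, with a log2 fold change of 0.39 (SE 0.19, limma adjusted p = 0.847; exact permutation p = 0.0317, unadjusted). The groups overlapped. All 4 tested aquaporins had a fold change above 0, with a median of 0.29, and 0 passed the test. *AQP1*, *AQP2*, *AQP5*, *AQP7*, *AQP8*, *AQP10* and *MIP* were at or below 0.595 TPM and were not tested, and *AQP6*, *AQP12A* and *AQP12B* are not analysed here. *AQP7*, the neighbour of *AQP3* in the RefSeq annotation and also an aquaglyceroporin, reached at most 0.254 TPM.

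**Figure D4:**
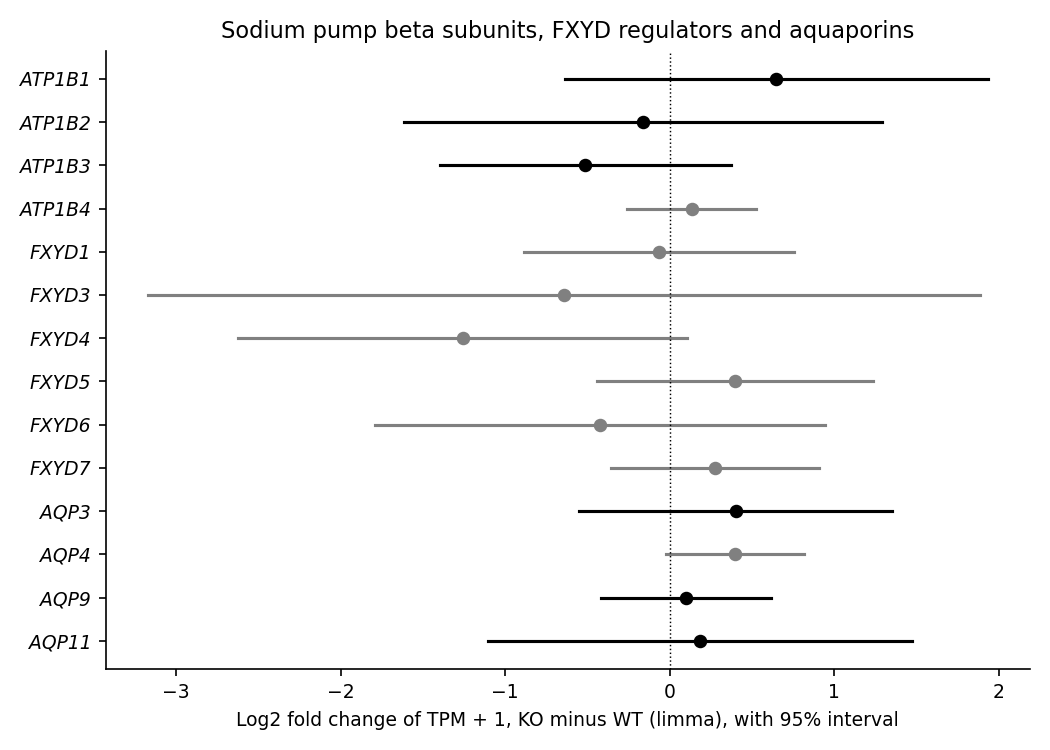
Log2 fold change of TPM + 1 (KO minus WT, points) with its 95% interval from limma (bars) for each tested beta subunit of the sodium pump, FXYD regulator and aquaporin; the 6 genes described in full are black and the others grey. All intervals include 0.

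In the remaining lists 0 genes passed the adjustment in either direction. Of the proton-potassium pump genes 2 were tested, *ATP4B* (log2 fold change 0.49, limma unadjusted p = 0.122) and *ATP12A* (−0.29), with a median of 0.10. Of 12 tested carriers and channels of sodium, chloride and bicarbonate, 5 were above 0 and 7 below, with a median of −0.11, and the smallest p belonged to the sodium-proton exchanger *SLC9A3* (−0.87, SE 0.45, limma adjusted p = 0.877) and the epithelial sodium channel subunit *SCNN1A* (−0.67, limma adjusted p = 0.897). Of 7 kinases and ligases that regulate salt transport, 2 were above 0 and 5 below, with a median of −0.35, led by *OXSR1* (−0.96, SE 0.41, limma adjusted p = 0.805) and *SGK3* (−0.65, limma adjusted p = 0.891). Of 11 tight junction and adhesion genes, 6 were above 0 and 5 below, with a median of 0.018, led by *OCLN*, which encodes occludin (−0.76, SE 0.32, limma adjusted p = 0.808), and *CLDN7* (−1.11, limma adjusted p = 0.917). Apart from the 6 genes, 2 of 40 tested genes of these lists reached an unadjusted p under 0.05, *OXSR1* and *OCLN*, beside 5.9% of all genes tested, and the 40 genes' median log2 fold change was −0.061.

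The spread of *ATP1B3* between embryos ran beside that of the keratins of the TE. *KRT8* and *KRT18* together were between 3829 TPM in WT_4 and 17602 TPM in WT_1 among WT embryos and between 6374 and 11971 TPM among KO embryos. *ATP1B3* came to 24.9, 27.0, 26.5, 24.1 and 23.3% of this keratin sum in WT_1 to WT_5 and to 21.0, 17.4, 28.4 and 19.4% in TE_1 to TE_4. In WT the share was 25.2 ± 1.57% (SD, n = 5) although *ATP1B3* itself differed 4.75 times, and in KO it was 21.6 ± 4.82% (SD, n = 4), with 3 of 4 KO embryos below all WT embryos and TE_3 above them. Taken per keratin, the difference in mean log2 was −0.25, against −0.51 before (exact permutation test, two-sided, p = 0.127). Over the 9 libraries log2(TPM + 1) of *ATP1B3* and of the keratin sum gave r = 0.946 and rho = 0.967, and r = 0.866 without WT_1 and WT_4. This scaling was chosen after the values were seen, the values share a library and its TPM total, and the relation is given as a description. The same scaling gave differences of 0.91 for *ATP1B1*, 0.67 for *AQP3*, 0.36 for *AQP9*, 0.45 for *AQP11* and 0.10 for *ATP1B2*, with exact permutation p from 0.19 to 0.905.

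*ATP1B1* ran against the mean marker levels of the inner cells. Each of the 6 genes was set against the mean log2(TPM + 1) of the TE, the ICM and epiblast, and the hypoblast marker lists, 18 relations over 9 libraries, chosen after the marker levels of WT_1 were seen. The means were not scaled by gene, so markers that differed most between libraries weigh most. The highest value was 2063 times the lowest for *NANOG* and 40.1 times for *SOX2*. For *POU5F1*, *KLF4* and *LIN28A* it was 2.77, 2.67 and 3.13 times. In the hypoblast list it was 581 times for *PDGFRA*, lowest in WT_1. It was 20.0, 4.76, 4.97, 20.5 and 5.97 times for *SOX17*, *GATA4*, *GATA6*, *APOA1* and *FN1*. *HNF4A* was at 0 in WT_1 and TE_3 and reached 13.8 TPM in WT_4, whereas *APOA1* was highest in TE_3, at 1821 TPM. Relations of *ATP1B1* with single markers were not tested. *ATP1B1* was higher where the mean of the 5 ICM and epiblast markers was lower, with r = −0.871 (exact permutation p = 0.00251, adjusted over the 18 relations p = 0.0439) and rho = −0.75 (exact permutation p = 0.0255, adjusted p = 0.0918). With the 7 hypoblast markers r was −0.827 (exact permutation p = 0.00487, adjusted p = 0.0439) and rho −0.80 (exact permutation p = 0.0138, adjusted p = 0.083). WT_1 and TE_3, the highest in *ATP1B1*, had the lowest mean levels of the ICM and epiblast markers, 4.27 and 4.95, while WT_4, the lowest in *ATP1B1*, had the highest, 7.31.

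The adjusted p of these relations depended on single libraries. Without WT_1 r was −0.751 for ICM and epiblast (exact permutation p = 0.0313, adjusted p = 0.188) and −0.775 for hypoblast markers (exact permutation p = 0.0275, adjusted p = 0.188), and without TE_3 and WT_1 the first was −0.556. For the ICM and epiblast markers the adjusted p was also above 0.05 without WT_3 (0.0795), WT_4 (0.117), TE_1 (0.0513) or TE_3 (0.0593), and for the hypoblast markers it was under 0.05 only without TE_2 (0.0484) or TE_4 (0.0312), all by exact permutation. The sign was negative in all 9 cases with 1 library left out, for both lists. With each group's mean removed r was −0.89 for ICM and epiblast and −0.818 for hypoblast markers. The share of each cell type was not measured in these libraries, and the part of the inner cells in the level of *ATP1B1* was not tested.

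For *ATP1B3* and *AQP11* the relation with the 10 TE markers was positive and just missed the adjustment, with r = 0.793 for *ATP1B3* (exact permutation p = 0.011, adjusted p = 0.0518; rho = 0.80) and r = 0.788 for *AQP11* (exact permutation p = 0.0115, adjusted p = 0.0518; rho = 0.767). The TE list includes *KRT8* and *KRT18*, so for *ATP1B3* this relation is not separate from the one with the keratin sum above. Without TE_4 and WT_4, the libraries farthest from the median of the TE markers, r was 0.60 and 0.608. *ATP1B3* also ran against the ICM and epiblast markers (r = −0.709, exact permutation p = 0.0317, adjusted p = 0.114), as did *AQP11* by rank (rho = −0.80, exact permutation p = 0.0138, adjusted p = 0.083; r = −0.63, exact permutation p = 0.0691). *ATP1B2*, *AQP3* and *AQP9* had no relation with an exact permutation p under 0.05 to any of the 3 lists. Between genotypes the mean marker level, KO minus WT, was −0.34 for the TE (exact permutation p = 0.444), −0.19 for the ICM and epiblast (exact permutation p = 0.762) and −0.69 for the hypoblast list (exact permutation p = 0.127).

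**Figure D5:**
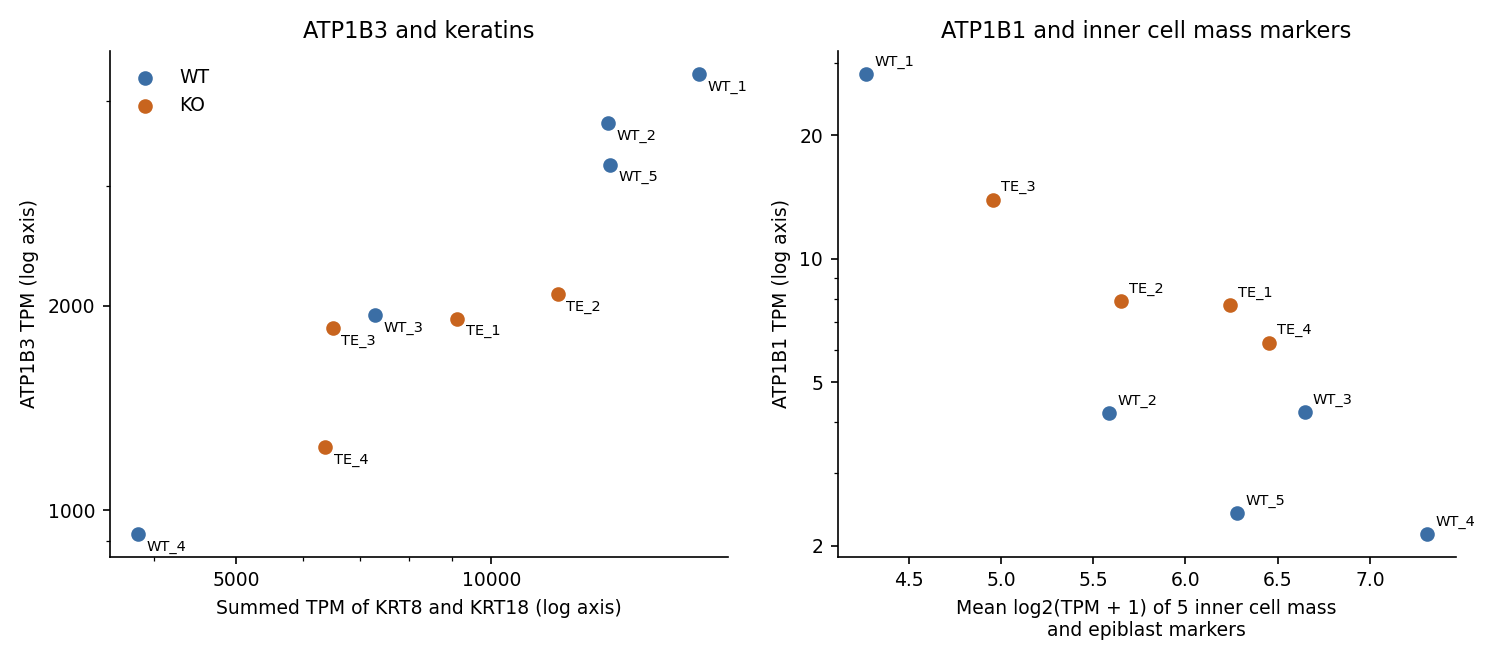
Left, *ATP1B3* against the summed TPM of *KRT8* and *KRT18* (both log axes); right, *ATP1B1* TPM (log axis) against the mean log2(TPM + 1) of the 5 ICM and epiblast markers. Each point is a library, WT blue and KO orange; *ATP1B3* is highest where the keratins are highest, in WT_1, and *ATP1B1* is lowest where the ICM markers are highest, in WT_4.

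The genes whose levels followed each of the 6 most closely over the 9 libraries were named by Pearson's r of log2(TPM + 1) among the 10431 other genes (10432 for *AQP9*) with a symbol and a median of at least 1 TPM, as a description without a test. For *ATP1B3* they were *EDEM2* (r = 0.970), *UGCG* (0.968) and *CTSZ* (0.967), and 49 genes had an r above 0.9. For *ATP1B1* they were *OSTF1* (0.967), *R3HCC1* (0.963) and *SYNGR2* (0.947), with 13 genes above 0.9, and for *ATP1B2* they were *SPTLC3* (0.979), *RTN4IP1* (0.956) and *SLC6A8* (0.936), with 10. *AQP3* was followed by *SRRM2* (0.963), *LMNB2* (0.921) and *KDM2A* (0.919), with 8 genes above 0.9, and *AQP11* by *PALLD* (0.969), *TSPYL4* (0.966) and *SNX30* (0.935), with 11. For *AQP9* the closest were *SPOCK1* (0.926), *UPK1A* (0.892) and *RAPGEF2* (0.884), and 1 gene was above 0.9. None of the 6 was among the closest 3 genes of another, which for *AQP9* was fixed in advance by its median of 0.776 TPM.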

How the data were processed

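The authors sequenced individual bovine blastocysts at D8 (5 WT, 4 KO for *TEAD4*), and the deposited table holds TPM of 21512 genes in 9 libraries. The paper states quality control, pseudoalignment and DESeq2 on counts, and the submitters' processing notes name FastQC, fastp and kallisto without versions. The annotation and build are not given in the sources used here. The library kit and sequencer differ between the labels, which name a stranded kit, and the methods of the paper, so how strand was handled is not settled. Column names gave the genotype, and 0 columns of values were left unused. The names do not tie a column to 1 sample of its genotype. TPM keep no counts, so DESeq2 was not run.

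Genes with a median above 0.1 TPM entered a fit of log2(TPM + 1) by lmFit and eBayes with trend (limma 3.58.1, R 4.3.3), adjusted by Benjamini-Hochberg over all 14599 genes and called where the adjusted p was under 0.05 and the log2 fold change above 1 in absolute size. The script was tested on simulated data. Single values, shares and sums were compared by exact two-sided permutation in Python 3.11.15 (numpy 2.4.6, pandas 2.3.3, scipy 1.17.1; plots, matplotlib 3.10.9). The smallest p is 0.0159 for 5 against 4, 0.0286 for 4 against 4 and 0.0357 for 5 against 3 embryos. Genes and lists were chosen with earlier results of these data known. Named genes were *TEAD4*, the 6 genes, all detected beta subunits, FXYD genes and aquaporins, the 2 genes of smallest p in each other pathway list and the 3 genes closest in pattern to each of the 6; marker genes named beside a result were chosen after their values were seen. Gene names and neighbours are those of RefSeq ARS-UCD2.0, in which all 6 symbols were found; no coordinates or sequences are given. Some genes of the pathway are not reported here. Alternatives were another pseudocount, filter or scaling, other limma settings, and leaving out each embryo in turn.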

Additional observations from a re-analysis of the deposited data

Results flagged for a closer look

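In 32 groups of values, the highest and the lowest library were compared with the rest of their group by Dixon's ratio, and 2 stood apart, both WT_1 among the WT embryos. *ATP1B1* in WT_1 was 4.87 on the log2(TPM + 1) scale, against 1.65 in the lowest WT library, WT_4. The *ATP1B1* share of the summed beta subunits in WT_1 was 0.640%, against 0.0742% in the lowest, WT_5. Both values come from the same measurement, and chance alone marks about 1 in 20 groups. WT_1 also had the lowest *ATP1B2* of all libraries, at 0.704 TPM, and the lowest *NANOG*, at 0.127 TPM. Among WT libraries it had the fewest genes above 0, at 14807, inside the KO range of 14776 to 15375. Why WT_1 stood apart was not tested.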

How the results depend on the processing

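The count of 0 genes of the 6 past the threshold was the same in all 17 alternatives, as was the count of 0 among the pathway lists in 11. With the filter at a median above 1 TPM, *AQP9* was not tested, since its median was 0.776 TPM. The lowest limma adjusted p of the 6 in any setting was 0.533, for *ATP1B1* without WT_1. There its permutation test gave 1.21 on the log2 scale with an exact permutation p of 0.0286. This p followed from leaving out the only WT library not below the KO libraries. The number of genes called among all genes, 3, was 8 with a pseudocount of 0.1 TPM or a median above 1 TPM, 5 with median-of-ratios size factors or limma without trend, 6 with quantile normalization or robust eBayes, and between 0 and 10 with 1 embryo left out. With array weights the log2 fold change of *ATP1B2* was 0.098, and per keratin 0.10, in place of −0.16. On the log2 odds scale its share differed by 0.38. With 1 embryo left out, fold changes were between −0.58 and 0.30 for *ATP1B2*, −0.00098 and 0.26 for *AQP9* and −0.41 and 0.70 for *AQP11*. The difference in share, in percentage points, was between −2.58 and 6.81 for *AQP3*, −6.91 and 2.65 for *AQP11*, −0.0773 and 0.0942 for *AQP9* and −0.172 and 0.0627 for *ATP1B2*, and the log2 ratio of *AQP3* to *AQP11* between −0.32 and 0.76. The cause of these shifts was not tested. No paired analysis was possible because each library is a separate embryo and the labels' numbers are not shared between genotypes. The unknown depth of each library limits *AQP9* most, with every value at or below 1.27 TPM.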

Other observations

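Marker lists of 2 other cell types, cumulus cells and sperm, gave the following values. Of 10 cumulus cell genes, 6 were above 0 in every library. *FSHR* was between 12.1 and 26.8 TPM in WT and between 1.36 and 23.3 TPM in KO. *STAR* was between 4.48 and 11.7 TPM in WT and between 1.62 and 6.60 TPM in KO. *HAS2*, *PTX3* and *VCAN* stayed at or below 0.52, 0.37 and 0.151 TPM. *LHCGR*, *CYP19A1*, *INHA* and *AMHR2* stayed at or below 0.727, 3.05, 0.385 and 0.633 TPM. The summed list was between 77.6 and 267 TPM in WT and between 9.05 and 129 TPM in KO. Its steroidogenic enzyme *CYP11A1* was between 52.7 and 247 TPM in WT and between 4.57 and 96.7 TPM in KO (log2 fold change −2.61, SE 0.73, limma adjusted p = 0.566). Of 6 sperm genes, *ODF1* was listed at 0 in every library, while *PRM1* reached 73.1 TPM in TE_3 and *TNP1* 75.1 TPM in WT_4. *TNP2* was between 0.485 and 5.24 TPM in WT and between 2.96 and 18.5 TPM in KO (log2 fold change 1.69, SE 0.54, limma adjusted p = 0.624). Of the 4 tested sperm genes 2 had a fold change above 0 and 2 below. The summed sperm list was between 3.36 and 125 TPM in WT and between 3.73 and 93.4 TPM in KO. In neither list did a gene pass the adjustment. Among the lineage lists 0 genes passed; of 10 TE markers 2 were above 0 and 8 below, of 5 ICM and epiblast markers 3 and 2, and of 7 hypoblast markers 1 and 6. The hypoblast factor *GATA4* was the 1 marker of these lineage lists whose groups did not overlap, lower in KO (log2 fold change −0.59, SE 0.20, limma adjusted p = 0.684), beside 2.03% of all genes tested. Its level was low, between 1.09 and 1.75 TPM in WT and between 0.367 and 0.957 TPM in KO, near the pseudocount of 1 TPM.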
